A study of Mus musculus with 72 samples.

Results

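Whole blood of mice that drank water with a low dose of lead was compared, gene by gene, with blood of control mice drawn at the same collection. The members are the 15 arrays of low-dose blood and the 7 arrays of control blood after exposure, chosen by their titles, which makes 22 of the 72 arrays of the series. All genes were examined through probe sets that carry exactly 1 gene symbol, and 12588 genes passed a filter on low values. The mice were female Balb/c, 9 weeks old when dosing began. The low-dose mice had 5 µg/mL of lead, as lead acetate trihydrate, in their drinking water for 2 weeks, and the controls had 0 µg/mL over the same time. Blood of all low-dose mice was taken at the jaw with a lancet, but per the labels only part of the control mice were bled then, which is why the control group has 7 arrays. In both groups blood was stabilised at collection and globin transcripts were removed before amplification. The labels give 15 mice per dose group and do not tie arrays to single animals. Every p-value below therefore reflects only how far arrays scatter, which may be technical in part. The SEs and p-values of single genes use 1 spread per gene, pooled over all 72 arrays. Other groups used here, from the same series, include 15 arrays at 50 µg/mL after exposure. A later collection, after 2 further weeks on plain water, gave 7 control arrays, 15 at the low dose and 13 at 50 µg/mL. Those 13 entered the pooled spread and the correlations with cell markers.

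Lead is a toxic metal that is carried in blood almost wholly by red cells. It inhibits enzymes of heme synthesis, above all aminolevulinate dehydratase and ferrochelatase, and an erythrocyte nucleotidase, and it competes with zinc and calcium at their binding sites in proteins. Whole blood mixes the RNA of lymphocytes, monocytes, granulocytes, platelets and young red cells. In such a mixture fewer cells of a type and less RNA per cell cannot be told apart.

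All values below are log2 expression, and a log2 difference of 1 is a doubling. A gene is called when limma's test, adjusted by Benjamini and Hochberg over the 12588 genes, gives p under 0.05, and "rose" or "fell" is said of called genes only. Array medians of the series lay between 4.05 and 4.22. Within the control arrays the correlation across probe sets was 0.984 to 0.995, and within the low-dose arrays 0.985 to 0.995. The interquartile range of relative log expression, a measure of how far an array departs from the typical one, averaged 0.316 ± 0.0365 (SD, n = 7) over the controls. Low-dose arrays averaged 0.249 ± 0.0447 (SD, n = 15) for the same measure (exact permutation test, two-sided, p = 0.0051, adjusted p = 0.0255 over 5 array measures). The 18S ribosomal RNA mean, the hybridisation controls, the 3 prime to 5 prime difference of housekeeping genes and the array median did not pass that test (adjusted p = 0.774 to 0.996). The control group was the more variable: 135 of the 164 called genes, 82.3%, had a larger SD in controls than at the low dose, against 64.1% of all tested genes. The pooled spread of the fit does not follow this, so the SE and p-value of such a gene can be too small. The B cell marker gene Cd79b had an SD of 0.89 in controls and 0.30 at the low dose, beside an SE of 0.17.

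After exposure 164 genes differed between the low dose and control, which is 1.3% of those tested: 140 rose (1.11%) and 24 fell (0.191%). With the monocyte marker mean as a covariate 3 genes were called higher and 23 lower, and 4 of the 164 were among these. With 7 marker means 2 were called higher and 4 lower, and 2 of the 164 were among these. Most calls under both settings were thus of other genes. The differences were small. The median of the genes that rose was 0.44, a 1.36-fold change, that of the genes that fell was -0.34, and 24 of the 164 reached 1.5-fold, 23 up and Bmp2 down. At an unadjusted p under 0.05 there were 1556 genes (12.4%), 881 higher and 675 lower, and 50.7% of all genes lay above 0. Without overlap between the groups stood 2 genes, 0.0159% of those tested: Slc12a2 upward and Kctd1 downward. Kctd1 was not called (-0.34 ± 0.11, adjusted p = 0.099) and is named here after its values were seen.

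The number called depended on which control arrays were kept. It was 276, 74, 329, 125, 35, 48 and 107 without control replicates 1 to 7 in turn, and between 92 and 250 without single low-dose arrays (100 without replicate 3, 104 without 9, 250 without 12 and 92 without 14). Of the 164 genes, 28 stayed called in all 22 such fits, 26 that rose and 2 that fell, and none of the 164 turned its sign. Of 71 named called genes, 49 lost their call without control replicate 5, 42 without 6, 32 without 2 and 28 without 7, and among low-dose arrays at most 26, without replicate 14. Control replicates 5 and 6 had the lowest B cell marker means and replicates 1 and 3 the highest. Without replicates 5 and 6, a choice made after seeing the data, 3 genes were called: Fos, Dusp1 and Slc12a2. Without replicates 1 and 3, 782 were called, 154 of the 164 among them. The means of 7 cell marker lists as covariates left 6 genes called, of which Fos and Dusp1 were among the 164, and these were also the only genes called in all 22 fits that left out 1 array and under all 18 other alternatives.

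**Figure D1:**
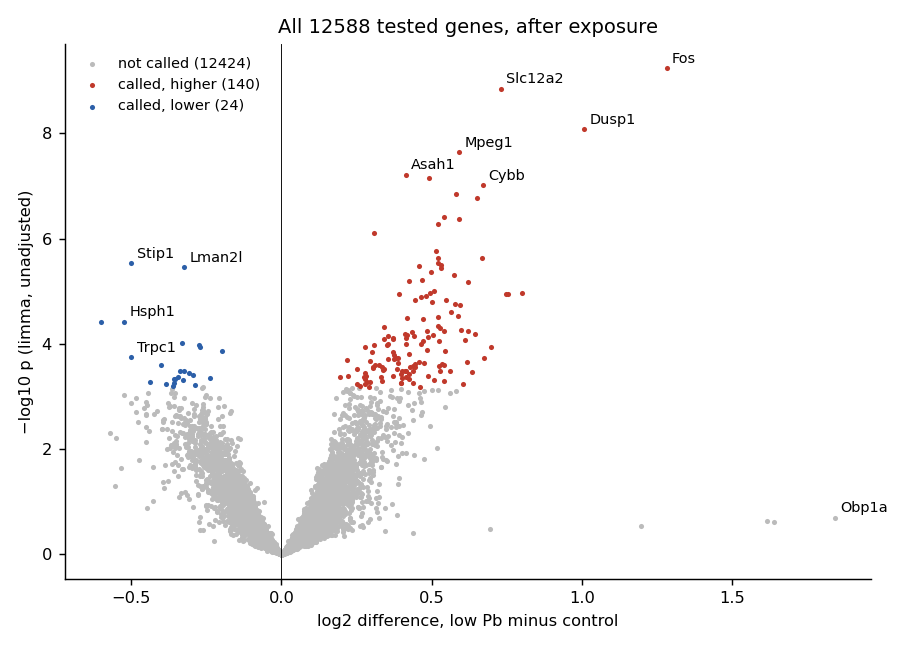
Log2 difference of the low dose minus control after exposure (x axis) against the unadjusted p on a −log10 scale (y axis) for every tested gene, with genes that rose in red and genes that fell in blue. Fos, Slc12a2 and Dusp1 stand at the top, the called genes that rose have a median of 0.44 and those that fell one of -0.34, and a few uncalled genes of very wide spread, such as Obp1a, lie far to the right.

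Fos, Slc12a2 and Dusp1 had the smallest adjusted p-values. Fos and Dusp1 are immediate early genes that cells switch on within minutes of a signal: Fos encodes a subunit of the transcription factor AP-1, and Dusp1 a phosphatase that turns MAP kinases off. Both are classical targets of factors that bind the cAMP response element. The 250 bases before the RefSeq start of each gene (build GRCm38.p6, Fos at chr12:85473640-85473889 on the plus strand, Dusp1 at chr17:26508473-26508722 on the minus strand) are shown 5′ to 3′ because these genes changed most. Capitals mark the core TGACGT, searched on both strands.
Fos: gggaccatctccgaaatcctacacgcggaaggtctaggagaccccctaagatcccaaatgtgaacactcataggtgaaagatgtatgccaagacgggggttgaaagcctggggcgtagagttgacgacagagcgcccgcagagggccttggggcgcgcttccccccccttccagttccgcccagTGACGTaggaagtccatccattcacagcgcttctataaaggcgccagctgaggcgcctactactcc
Dusp1: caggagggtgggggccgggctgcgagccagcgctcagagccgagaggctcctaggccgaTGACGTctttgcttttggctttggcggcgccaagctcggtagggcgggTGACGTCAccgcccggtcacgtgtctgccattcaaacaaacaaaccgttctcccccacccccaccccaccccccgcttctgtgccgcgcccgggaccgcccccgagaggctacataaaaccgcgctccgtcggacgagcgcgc
The core stands 66 to 61 bases before the start of Fos. In Dusp1 it stands 191 to 186 and 143 to 138 bases before the start, and the second copy overlaps a copy on the other strand. Of 27025 mouse promoters of this length 6.56% hold the core. Among promoters of tested genes the share was 9.99%, and among those of genes that rose it was 13 of 111, or 11.7%, near that background. A match is a description of letters and not a site.

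Fos was 5.97 at the lowest, 6.77 at the median and 7.85 at the highest in controls, and 7.79, 8.20 and 8.47 at the low dose. Only the highest control reached the low-dose range, and 14 of 15 low-dose arrays lay above every control. The rise was 1.28 ± 0.18 (SE; 95% interval 0.92 to 1.64), or 2.43-fold (adjusted p = 7.35e-06). Dusp1 was 7.69, 8.25 and 9.00 in controls and 8.87, 9.37 and 9.93 at the low dose, with 14 arrays above every control. It rose by 1.01 ± 0.16, or 2.01-fold (adjusted p = 3.48e-05). Over the fits that left out 1 array Fos ranged from 1.13 to 1.44 and Dusp1 from 0.89 to 1.11, called in all 22.

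None of their relatives in the lists of this paragraph was called, where 1.11% of all genes rose. Dusp1 was counted with the MAP kinase phosphatases and not in the list of immediate early genes. Of 25 tested genes in the immediate early list Fos alone was called. In that list 14 lay above 0 and the median was 0.02, beside 0.00 for all tested genes. Myc, a growth-promoting transcription factor, was -0.26 ± 0.08 (adjusted p = 0.102). Ier2, another early response gene, was 0.21 ± 0.08 (0.196), and Zfp36l2, whose protein destabilises mRNAs, was 0.38 ± 0.13 (0.144). Of 13 MAP kinase phosphatases and feedback genes Dusp1 alone was called, against 1.11% of all genes that rose, and the median was -0.04. Dusp5, which acts on ERK in the nucleus, was 0.20 ± 0.06 with 14 arrays above every control and did not pass (0.0938). Dusp7 was -0.16 (0.224), and Spry1, a feedback inhibitor of receptor tyrosine kinases, was -0.22 (0.244).

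Of 17 tested glucocorticoid response genes 3 rose, Dusp1, Cxcr4 and Tsc22d3, against 1.11% of all genes, with a list median of 0.05. Cxcr4, the chemokine receptor that holds leukocytes in bone marrow, was 7.81, 8.48 and 8.77 at the lowest, median and highest control and 8.28, 9.20 and 9.90 at the low dose. It rose by 0.75 ± 0.16 (adjusted p = 0.00438), with 12 of 15 arrays above every control. Tsc22d3, which encodes the glucocorticoid-induced leucine zipper protein, rose by 0.51 ± 0.11, from a median of 10.11 to 10.53 (0.00438), with 10 arrays above the controls. Il1r2, a decoy receptor for interleukin-1, was -0.45 ± 0.15 (0.125), and the clock gene Per1 was 0.24 ± 0.08 (0.132). Of 16 circadian clock genes none was called, against 1.3% of all genes, and the median was 0.01. At an unadjusted p under 0.05, 5 were higher, as were 881 of all 12588 genes.

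**Figure D2:**
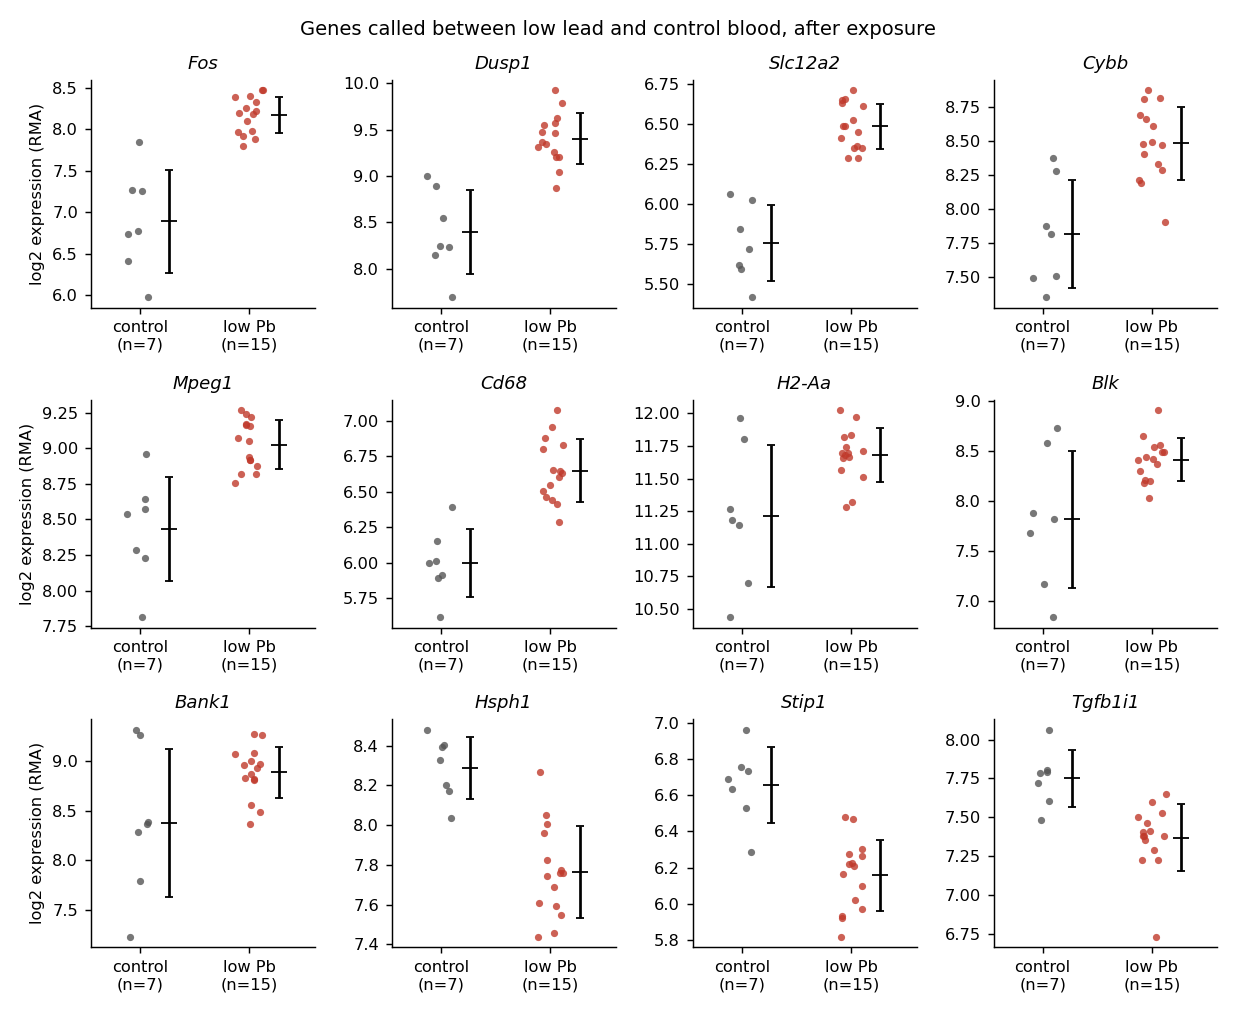
Log2 expression (y axes, each on its own scale) of 12 called genes in the 7 control arrays (grey) and 15 low-dose arrays (red) after exposure, with mean ± SD beside the points. Slc12a2 separates the groups completely, Fos and Dusp1 nearly so, while for H2-Aa, Blk and Bank1 the highest controls lie among the low-dose arrays and the lowest controls far below them.

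Slc12a2, the sodium, potassium and chloride cotransporter NKCC1 that helps cells regain volume, was the called gene whose groups did not touch. Controls were 5.42, 5.72 and 6.06 at the lowest, median and highest, and low-dose arrays 6.28, 6.49 and 6.71. It rose by 0.73 ± 0.11, or 1.66-fold (adjusted p = 9.02e-06). The call was lost with the 7 marker means as covariates (0.40, adjusted p = 0.0746) and with the monocyte mean alone (0.41, adjusted p = 0.071). Of 18 tested genes of cation-chloride cotransport and cell volume Slc12a2 was the only one to rise, against 1.11% of all genes. The list median was -0.04, and 1 gene fell, against 0.191% of all genes. Trpc1, a cation channel gene, fell by 0.50 ± 0.13 (0.0259), from a control range of 4.99 to 5.44 to a low-dose range of 3.99 to 5.05, with 14 of 15 arrays below every control. Trpc1 was called in 19 of the 22 fits that left out 1 array and lost without control 2, 5 or 6 (weakest adjusted p = 0.0893). With the 7 marker means as covariates it was -0.26 (adjusted p = 0.581). In the arrays of the other groups Trpc1 correlated best with the platelet marker mean (Pearson r = 0.76). Wnk4, a kinase that regulates these cotransporters, was -0.27 ± 0.10 (0.216).

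Chaperone genes lay lower at the low dose. Heat shock proteins and their co-chaperones fold other proteins, and their genes are driven by heat shock factors that bind inverted GAA repeats. Of 19 tested heat shock and co-chaperone genes 16 lay below 0 and 10 did so at an unadjusted p under 0.05. Of all 12588 genes 675 were lower at that level. Stip1 and Hsph1 fell, against 0.191% of all genes, and the list median was -0.18. Stip1, which links Hsp70 to Hsp90, was 6.29, 6.69 and 6.96 at the lowest, median and highest control and 5.82, 6.21 and 6.48 at the low dose. It fell by 0.50 ± 0.10 (adjusted p = 0.00205), with 12 arrays below every control, and was called in all 22 fits that left out 1 array. Hsph1, an Hsp110 exchange factor for Hsp70, was 8.04, 8.33 and 8.48 in controls and 7.44, 7.76 and 8.27 at the low dose. It fell by 0.52 ± 0.12 (0.0104), with 13 arrays below every control. That call was lost without control 5 alone (-0.49, adjusted p = 0.063).

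St13, a Hsp70-interacting protein gene, was -0.30 ± 0.09 (adjusted p = 0.0768) and the mitochondrial chaperonin Hspd1 -0.25 ± 0.08 (0.119). The inducible Hsp70 gene Hspa1b was 0.10 ± 0.20 (0.914), with controls of 3.71 to 4.62 and low-dose arrays of 3.48 to 5.15. Its co-chaperone gene Dnajb1 was 0.18 ± 0.12 (0.581). Neither of these heat-inducible genes passed. Ahsa2, of the family of Hsp90 activators, fell by 0.27 ± 0.07 (0.018) and was lost without control 2, 4, 5 or 6 (weakest adjusted p = 0.116). In the endoplasmic reticulum, 15 of 20 unfolded protein response genes lay below 0 with a median of -0.09, and 1 fell, against 0.191% of all genes. Hyou1, an Hsp110-type chaperone of that compartment, fell by 0.24 ± 0.06 (0.0398) but was called in only 10 of the 22 fits (weakest adjusted p = 0.125). Another probe set of Hyou1 was -0.08 (limma, unadjusted p = 0.193). Hsp90b1 was -0.25 ± 0.10 (0.244) and the stress transcription factor gene Atf4 -0.23 ± 0.10 (0.289).

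The 250 bases before the RefSeq start of Hsph1 (GRCm38.p6, chr5:149636337-149636586, minus strand) are shown because that gene fell. Capitals mark TTCNNGAA, a pair of the inverted repeats, which reads the same on both strands.
Hsph1: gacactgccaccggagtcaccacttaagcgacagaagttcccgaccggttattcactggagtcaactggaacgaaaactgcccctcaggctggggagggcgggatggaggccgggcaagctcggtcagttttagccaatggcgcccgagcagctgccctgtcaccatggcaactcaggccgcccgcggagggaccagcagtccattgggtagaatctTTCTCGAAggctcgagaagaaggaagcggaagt
The pair stands 33 to 26 bases before the start. It is present in 7.1% of all promoters of this length, in 2 of 16 promoters of the heat shock list and not in that of Stip1.

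Monocyte genes lay higher at the low dose. Monocytes are the circulating precursors of macrophages. Of 27 tested monocyte and macrophage genes 25 lay above 0 and 19 did so at an unadjusted p under 0.05. Of all 12588 genes 881 were higher at that level. Called were Cd68, Mpeg1, Adgre4, Csf1r, Cx3cr1 and Treml4, that is 6 of 27 against 1.11% of all genes, and the median was 0.26. Mpeg1, which encodes a pore-forming protein of phagocytes, was 7.81, 8.54 and 8.96 at the lowest, median and highest control and 8.76, 9.05 and 9.27 at the low dose. It rose by 0.59 ± 0.09, or 1.51-fold (adjusted p = 7.27e-05). Cd68, a lysosomal protein of macrophages, ran from 5.62 to 6.39 in controls and from 6.29 to 7.07 at the low dose, with 14 of 15 arrays above every control (0.65 ± 0.11, 0.000238). Both were called in all 22 fits that left out 1 array.

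Csf1r, the receptor for the growth factor on which monocytes depend, rose by 0.50 ± 0.10, from 8.11 to 9.03 in controls to 8.98 to 9.62 at the low dose (adjusted p = 0.00239). Its call was lost without control 5 (0.40, adjusted p = 0.0565). Adgre4, an adhesion receptor of the F4/80 family, rose by 0.57 ± 0.12 (0.00254) and was called in all 22 fits. Cx3cr1, the fractalkine receptor that marks patrolling monocytes, rose by 0.42 ± 0.09 (0.00906, lost without control 5 or 7, weakest adjusted p = 0.0807). Treml4, also of patrolling monocytes, rose by 0.38 ± 0.10 (0.0263, lost without control 5, 6 or 7, weakest 0.216). Ccr2, which marks the classical, inflammatory monocytes, was 0.33 ± 0.14 (0.284), with 0 of 15 arrays above every control.

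The oxidase with which phagocytes make superoxide has its catalytic subunit in Cybb and a cytosolic subunit in Ncf1. Cybb was 7.35, 7.81 and 8.37 at the lowest, median and highest control and 7.90, 8.48 and 8.87 at the low dose. It rose by 0.67 ± 0.11, or 1.59-fold (adjusted p = 0.000174), with 10 arrays above every control, and was called in all 22 fits. Ncf1 rose by 0.52 ± 0.12 (0.00885) and was lost without control 5 or 6 (weakest adjusted p = 0.0827). The partner subunit Cyba was 0.14 ± 0.10 (0.667) and the small GTPase gene Rap1a -0.10 ± 0.09 (0.74). The median of the 6 tested genes was 0.12. Cybb and Ncf1 were the members called, against 1.11% of all genes, and both are also expressed in B cells.

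Among 17 toll-like and other pattern receptors 2 rose, against 1.11% of all genes, and the median was 0.09. Tlr7, the endosomal sensor of single-stranded RNA, rose by 0.30 ± 0.08 (adjusted p = 0.0319). Ly86, the partner of the toll-like protein RP105, rose by 0.49 ± 0.12 (0.0152), though none of its low-dose arrays exceeded the highest control. Tlr13 was 0.28 ± 0.09 (0.134) and Nod1 0.23 ± 0.09 (0.219). Naip5, an inflammasome sensor of flagellin that stood in no list, rose by 0.62 ± 0.13 (0.00305), from a control range of 4.19 to 5.17 to a low-dose range of 4.92 to 5.81. Tlr7 was lost without control 5 or 6 and without low-dose array 9 or 14 (weakest 0.165), Ly86 without control 5 or 6 (weakest 0.158) and Naip5 without control 5 (0.0504).

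The monocyte marker mean, over Adgre4, Ccr2, Csf1r, Ctss, Cx3cr1 and Mpeg1 and relative to the midpoint of both groups, ran from -0.66 to 0.25 in controls and from -0.02 to 0.48 at the low dose. With this mean as a covariate, an alternative added after seeing the data, 4 of the 164 genes stayed called, Cybb was 0.19 (adjusted p = 0.216) and Fos 1.06 (0.00779). These markers hold 4 of the called genes. Their part in the result was not tested otherwise.

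B cell genes lay higher at the low dose, and here the controls were very uneven. All 24 tested genes of the B cell receptor and surface lay above 0, 22 of them at an unadjusted p under 0.05. Of all 12588 genes 881 were higher at that level. Fcer2a, Cxcr5, Blk, Fcmr, Bank1, Ly86 and Cd83 rose, 7 of 24 against 1.11% of all genes, and the median was 0.41. Blk, a Src-family kinase of B cell receptor signalling, was 6.84, 7.82 and 8.73 at the lowest, median and highest control and 8.03, 8.43 and 8.92 at the low dose. It rose by 0.60 ± 0.14 (adjusted p = 0.0136), yet 1 of 15 low-dose arrays lay above every control. Bank1, a scaffold of the same pathway, was 7.22, 8.36 and 9.32 in controls and 8.36, 8.93 and 9.27 at the low dose, with no array above the controls (0.51 ± 0.14, 0.0422).

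Fcer2a, the low-affinity IgE receptor, rose by 0.62 ± 0.15 (adjusted p = 0.0136) and Cxcr5, which guides B cells to follicles, by 0.61 ± 0.15 (0.0157). Fcmr, the IgM receptor, rose by 0.56 ± 0.15 (0.0338) and the activation marker Cd83 by 0.44 ± 0.12 (0.0338). Blk, Fcer2a and Cxcr5 were lost without control 5 or 6 (weakest adjusted p = 0.132 for Blk, 0.164 for Fcer2a and 0.132 for Cxcr5). Fcmr stayed called in 13, Cd83 in 15 and Bank1 in 9 of the 22 fits. All 10 Fc receptor genes lay above 0 with a median of 0.33, and Fcer2a and Fcmr rose, against 1.11% of all genes. Fcgrt, which recycles IgG, was 0.29 ± 0.09 (0.0958), and the Fc receptor-like gene Fcrl1 0.38 ± 0.13 (0.119).

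Transcription factors of the B lineage also lay higher. All 15 tested lay above 0, the median was 0.27, and Irf4 and Bach2 rose, against 1.11% of all genes. Irf4, which directs activated B cells, was 5.59, 6.10 and 6.70 at the lowest, median and highest control and 6.07, 6.69 and 6.99 at the low dose. It rose by 0.52 ± 0.10 (adjusted p = 0.00186), with 7 arrays above every control, and was called in all 22 fits that left out 1 array. Bach2, which holds back plasma cell fate, rose by 0.43 ± 0.11 (0.0233, lost without control 2, 5, 6 or 7, weakest adjusted p = 0.157). Mef2c was 0.40 ± 0.12 (0.0639) and Ebf1 0.52 ± 0.19 (0.191).

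Of 9 tested immunoglobulin and plasma cell genes 1 rose, against 1.11% of all genes, and the median was 0.02. Ighv14-2, a heavy chain variable segment, rose by 0.70 ± 0.17 (adjusted p = 0.018). Its controls spanned 7.18 to 9.72 and its low-dose arrays 8.60 to 9.86, and the call was lost without control 2, 5, 6 or 7 (weakest 0.164). Mzb1, a chaperone of antibody assembly, was 0.38 ± 0.12 (0.0879), Derl3 -0.15 ± 0.07 (0.339) and the light chain segment Iglv1 0.21 ± 0.15 (0.625). Near-identical variable segments can share probes, so Ighv14-2 is uncertain as a single gene.

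MHC class II molecules present antigen on B cells, monocytes and dendritic cells. Their genes share a promoter module whose Y box is an inverted CCAAT. Of 18 tested class II and antigen presentation genes 17 lay above 0 and 7 rose, against 1.11% of all genes: H2-Oa, H2-Ob, H2-Ea, H2-Eb1, H2-Aa, H2-DMa and Cd83. The median was 0.43. The 250 bases before the RefSeq start of H2-Aa (chr17:34287824-34288073, minus strand), H2-Oa (chr17:34092129-34092378, plus strand) and H2-Ob (chr17:34238655-34238904, plus strand), all GRCm38.p6, are shown because these members moved together. Capitals mark CCAAT on either strand and the core TGACGT on either strand.
H2-Aa: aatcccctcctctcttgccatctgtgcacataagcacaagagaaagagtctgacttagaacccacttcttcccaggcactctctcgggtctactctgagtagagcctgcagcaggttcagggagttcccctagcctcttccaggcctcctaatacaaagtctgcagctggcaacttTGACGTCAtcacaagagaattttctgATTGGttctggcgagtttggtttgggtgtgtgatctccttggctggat
H2-Oa: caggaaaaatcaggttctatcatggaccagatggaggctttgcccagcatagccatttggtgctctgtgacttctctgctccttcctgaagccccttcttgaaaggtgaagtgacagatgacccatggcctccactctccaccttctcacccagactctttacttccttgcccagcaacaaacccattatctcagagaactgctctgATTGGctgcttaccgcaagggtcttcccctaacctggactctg
H2-Ob: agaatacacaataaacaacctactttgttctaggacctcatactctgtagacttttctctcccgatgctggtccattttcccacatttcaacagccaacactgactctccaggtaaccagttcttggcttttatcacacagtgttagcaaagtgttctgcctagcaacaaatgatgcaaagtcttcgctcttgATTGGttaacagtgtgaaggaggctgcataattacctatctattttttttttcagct
An inverted CCAAT stands 48 to 44 bases before the start of H2-Aa, 43 to 39 before H2-Oa and 57 to 53 before H2-Ob. The core TGACGT is present in H2-Aa, in overlapping copies on both strands. CCAAT on either strand was found in 9 of 12 promoters of the list, or 75.0%, against 34.5% of all 27025 promoters.

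H2-Oa, the alpha chain of the peptide-loading modulator H2-O, was 6.52, 7.12 and 7.92 at the lowest, median and highest control and 7.30, 7.83 and 8.29 at the low dose. It rose by 0.59 ± 0.13 (adjusted p = 0.00575), and its beta chain gene H2-Ob by 0.59 ± 0.13 (0.00885). H2-Aa, an I-A chain that binds peptide, was 10.44, 11.18 and 11.96 in controls and 11.28, 11.70 and 12.03 at the low dose (0.47 ± 0.11, 0.0177). H2-Ea rose by 0.54 ± 0.13 (0.021), H2-Eb1 by 0.49 ± 0.13 (0.0393) and H2-DMa, of the peptide exchange factor, by 0.46 ± 0.12 (0.0291). For each of these genes between 1 and 3 of 15 low-dose arrays lay above every control, because the highest controls reached into the low-dose range. H2-Oa, H2-Ob and H2-Aa were lost without control 5 or 6 (weakest adjusted p = 0.0887 for H2-Oa, 0.104 for H2-Ob and 0.158 for H2-Aa). H2-Ea was called in 18, H2-DMa in 15 and H2-Eb1 in 11 of the 22 fits.

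The B cell marker mean, over Cd22, Cd79a, Cd79b, Ms4a1 and Pax5, ran from -1.11 to 0.67 in controls and from -0.20 to 0.72 at the low dose. All 5 markers lay above 0 and none was called (adjusted p from 0.0755 for Cd22 to 0.809 for Pax5). Controls 5 and 6 stood lowest, at -0.79 and -1.11, and controls 1 and 3 highest, at 0.58 and 0.67, each above all low-dose arrays but replicate 14. With this mean as a covariate, an alternative added after seeing the data, 20 of the 164 genes stayed called. Then Blk was 0.21 (adjusted p = 0.096), H2-Aa 0.16 (0.264) and Irf4 0.28 (0.0355). The mean was taken over genes that were themselves higher, and its part in the result was not tested otherwise.

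**Figure D3:**
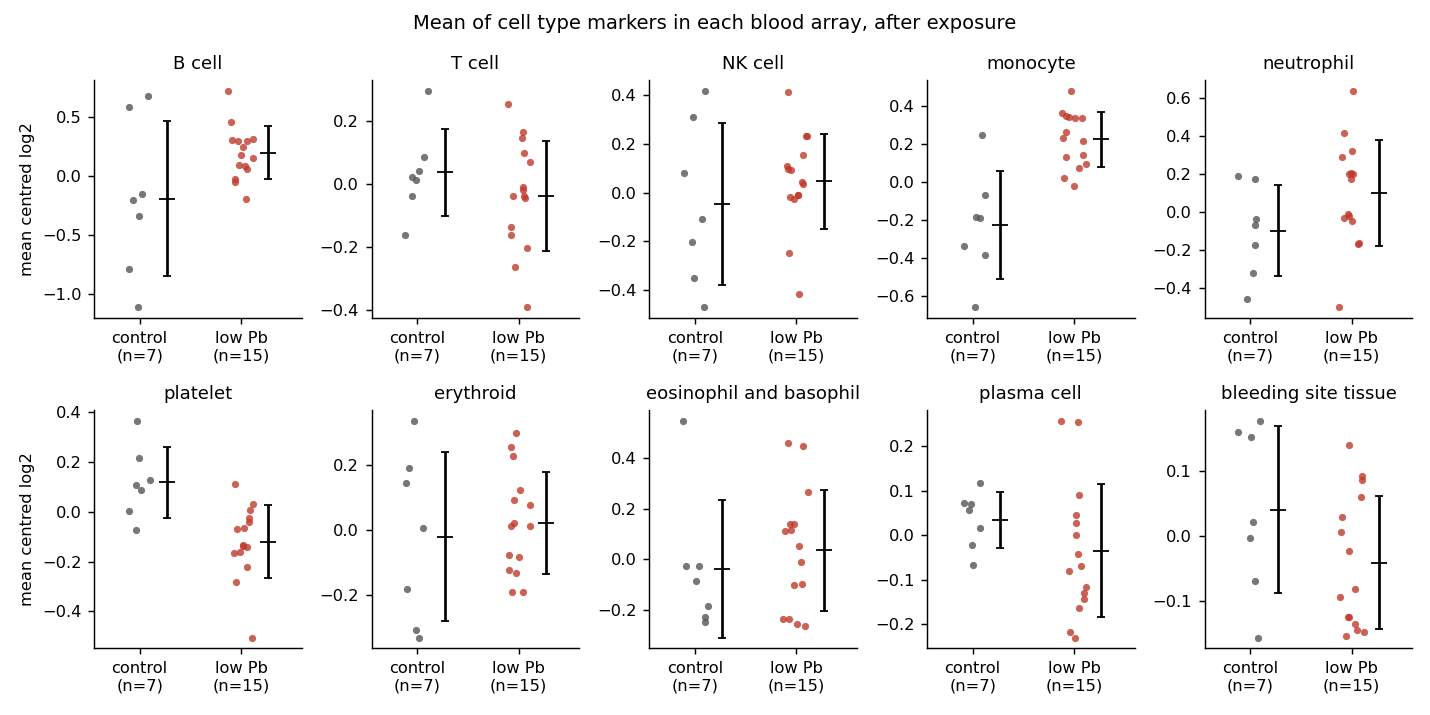
Mean of the tested markers of each cell type in each array (y axes, mean log2 value relative to the midpoint of both groups, each on its own scale) for 7 controls (grey) and 15 low-dose arrays (red), with mean ± SD beside the points. The monocyte means of the low-dose arrays lie between -0.02 and 0.48 against -0.66 to 0.25 in controls, the platelet means lie lower at the low dose, and the B cell means of the controls run from -1.11 to 0.67.

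Platelet genes lay lower. Platelets carry RNA from megakaryocytes. All 15 tested platelet adhesion receptors and integrins lay below 0, 11 of them at an unadjusted p under 0.05. Of all 12588 genes 675 were lower at that level. The median of these 15 was -0.25, and none was called, against 0.191% of all genes that fell. The member of smallest p was Treml1, a receptor stored in platelet granules, at 8.43, 8.65 and 9.02 in controls and 7.69, 8.37 and 8.60 at the low dose (-0.32 ± 0.10, adjusted p = 0.102). Cd151 was -0.31 ± 0.10 (0.113), and the von Willebrand and collagen receptor genes Gp9 and Gp6 were -0.33 ± 0.11 (0.142) and -0.28 ± 0.10 (0.144). Of 7 purinergic and thrombin receptors 6 lay below 0, and P2rx1, the ATP-gated channel of platelets, fell, against 0.191% of all genes. P2rx1 was 8.18, 8.39 and 8.74 in controls and 7.62, 8.05 and 8.29 at the low dose (-0.36 ± 0.10, 0.0497), and it was called in 6 of the 22 fits that left out 1 array (weakest adjusted p = 0.214).

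The thrombin receptor cofactor gene F2rl2 was -0.36 ± 0.10 (adjusted p = 0.0639), and the ADP receptor genes P2ry12 and P2ry1 were -0.55 ± 0.19 (0.158) and -0.30 ± 0.12 (0.213). Of 28 granule, secretion and cytoskeleton genes 24 lay below 0 with a median of -0.20, and 1 fell, against 0.191% of all genes. Tgfb1i1, which encodes the focal adhesion adaptor Hic-5, fell by 0.38 ± 0.11, from 7.48, 7.79 and 8.06 to 6.73, 7.38 and 7.65 (0.0465), and was called in 8 of the 22 fits (weakest 0.194). The granule protein gene Thbs1 was -0.52 ± 0.15 (0.062), the platelet tubulin Tubb1 -0.32 ± 0.10 (0.107) and the thromboxane synthase gene Tbxas1 -0.25 ± 0.08 (0.119). Of 13 regulators of megakaryocytes and red cells 10 lay below 0, and the median was -0.19. Gata2 alone fell, against 0.191% of all genes, by 0.29 ± 0.08 (0.0467, called in 8 of 22 fits, weakest 0.189). Tal1 was -0.34 ± 0.10 (0.0846), Runx1 -0.26 ± 0.09 (0.125, 14 arrays below every control) and the erythropoietin receptor gene Epor -0.22 ± 0.08 (0.21). The platelet marker mean, over 6 genes, ran from -0.07 to 0.37 in controls and from -0.51 to 0.11 at the low dose. With the 7 marker means as covariates, the platelet mean among them, P2rx1 was -0.11 (adjusted p = 0.797), Tgfb1i1 -0.06 (0.928) and Gata2 -0.21 (0.499).

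Genes tied to the known targets of lead in red cells did not pass. None of 15 heme synthesis genes was called, against 1.3% of all genes, and a list this short can hold none at that share. None had an unadjusted p under 0.05, against 12.4% of all genes, and the median was -0.01. Alad, the lead-sensitive dehydratase, was 7.75, 8.08 and 8.50 in controls and 7.61, 8.01 and 8.36 at the low dose (-0.10 ± 0.13, adjusted p = 0.844). The erythroid synthase gene Alas2 was -0.01 ± 0.04 (0.981) and Fech, which inserts the iron, -0.01 ± 0.04 (0.964). Both lay near the top of the arrays' scale, Alas2 at 13.8 and Fech at 13.5 where the highest value was 14.1, and differences can be compressed there. The smallest p of the list was that of Uros, with 6.39, 6.63 and 6.83 in controls and 6.39, 6.51 and 6.68 at the low dose (-0.10 ± 0.06, 0.565). The nucleotidase gene Nt5c3 was 0.13 ± 0.19 (0.875) and the transferrin receptor gene Tfrc, of young red cells, -0.45 ± 0.29 (0.581).

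Of 12 lead target protein genes none was called and the median was 0.01. The share of all genes called, 1.3%, applies to this list and to the others of this paragraph. Atp2b1, a calcium pump of the plasma membrane, was 0.25 ± 0.08 (adjusted p = 0.113), the protein kinase C gene Prkcb 0.24 ± 0.10 (0.261), S100a6 0.26 ± 0.14 (0.453) and the glutathione reductase gene Gsr -0.14 ± 0.10 (0.652). The metal-binding metallothionein genes Mt1 and Mt2 were -0.06 ± 0.08 (0.875) and -0.01 ± 0.12 (0.989), in a list of 14 metal genes with none called and a median of 0.02. None of 18 antioxidant and Nrf2 target genes was called (median 0.01), Gstm1 at 0.19 ± 0.07 (0.224) having the smallest p. None of 23 red cell membrane and carrier genes was called (median 0.01), and the water channel gene Aqp1 was -0.29 ± 0.12 (0.267). The 5 globin genes, which the depletion step removes in part, had a median of -0.17 and none was called.

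Among 19 tested iron genes Hfe rose and Bmp2 fell, against 1.11% and 0.191% of all genes, and the median was -0.05. Hfe, which tunes hepcidin and is expressed in monocytes, was 4.65, 5.33 and 5.69 at the lowest, median and highest control and 5.67, 5.90 and 6.10 at the low dose. It rose by 0.59 ± 0.11, or 1.51-fold (adjusted p = 0.000495), with 14 arrays above every control, and was called in all 22 fits that left out 1 array. Bmp2, a growth factor of the same pathway, was 5.44, 6.24 and 6.66 in controls and 5.10, 5.61 and 6.18 at the low dose. It fell by 0.60 ± 0.14 (0.0104), the largest fall of a called gene, and was lost without control 5 (-0.51, adjusted p = 0.0946). With the 7 marker means as covariates Bmp2 was -0.26 (adjusted p = 0.707) and Hfe 0.18 (0.735). In the arrays of the other groups Bmp2 correlated best with the platelet mean (Pearson r = 0.72) and Hfe with the monocyte mean (0.63). The macrophage metal transporter gene Slc11a1 was 0.35 ± 0.12 (0.123) and the iron exporter gene Slc40a1 0.33 ± 0.14 (0.281).

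T cell, NK cell and neutrophil genes gave few calls or none, and among all genes 1.3% were called. At that share lists of this size can hold none. Of 25 T cell genes 20 lay below 0 with a median of -0.08, and 1 fell, against 0.191% of all genes. Trat1, an adaptor of the T cell receptor, fell from 6.37, 6.60 and 6.77 to 5.92, 6.28 and 6.49 (-0.34 ± 0.09, adjusted p = 0.0397) and was called in 11 of 22 fits (weakest 0.161). Lat was -0.21 ± 0.09 (0.251), Cd27 -0.22 ± 0.10 (0.369) and Ccr7 0.18 ± 0.10 (0.501). Of 17 NK and cytotoxic genes none was called (median 0.05), Klrd1 at 0.28 ± 0.11 (0.197) having the smallest p. Of 20 neutrophil genes none was called and 17 lay above 0 (median 0.07), with the gelatinase gene Mmp9 at 0.47 ± 0.15 (0.0919). Of 13 eosinophil and basophil genes Gata2 alone was called, against 0.191% of all genes that fell, and the median was -0.16. Ear3, an eosinophil-type ribonuclease gene outside that list, rose by 0.58 ± 0.13 (0.00554), from 5.08 to 5.70 in controls to 5.59 to 6.76 at the low dose, and was lost without control 6 (0.51, adjusted p = 0.053).

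Among 36 interferon response genes Ifi44l alone rose, against 1.11% of all genes, and the median was 0.10. Ifi44l was 4.71, 5.25 and 5.80 in controls and 5.37, 6.08 and 6.58 at the low dose (0.75 ± 0.16, adjusted p = 0.00438), lost without control 5 (0.66, adjusted p = 0.0546). Ifi204 was 0.35 ± 0.14 (0.248), Stat2 0.18 ± 0.08 (0.317) and Mx1 0.24 ± 0.13 (0.452). Of 20 NF-kappaB targets 15 lay above 0, 8 of them at an unadjusted p under 0.05, as did 881 of all 12588 genes. Of these targets Il18 and Cd83 rose, against 1.11% of all genes. The cytokine gene Il18 went from 5.10, 5.46 and 6.07 to 5.49, 5.88 and 6.14 (0.34 ± 0.09, 0.0338) and was called in 12 of 22 fits (weakest 0.2). Among 16 chemokine and migration receptors Cxcr4, Cxcr5 and Cx3cr1, already described, rose, against 1.11% of all genes, and the median was 0.18.

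Of 29 RNA-binding and splicing genes 23 lay above 0 and Cirbp alone rose, against 1.11% of all genes. Cirbp, a cold-inducible RNA-binding protein gene, was 5.05, 5.49 and 6.61 in controls and 5.98, 6.41 and 6.90 at the low dose (0.67 ± 0.17, adjusted p = 0.0259), called in 16 of 22 fits (weakest 0.18). Srsf6 was 0.16 ± 0.06 (0.196) and Luc7l3 0.26 ± 0.10 (0.213). Of 23 genes of TGF-beta, BMP and Hippo signalling Bmp2, Tgfb1i1 and Yap1 fell, against 0.191% of all genes, with a list median of 0.02. Yap1, the effector of the Hippo pathway, fell by 0.36 ± 0.10, with 11 arrays below every control (0.041, called in 11 of 22 fits, weakest 0.155), and was -0.09 with the marker means as covariates (adjusted p = 0.842). Of 13 cyclic nucleotide phosphodiesterases Pde7b alone was called, against 0.191% of all genes that fell. Pde7b fell by 0.36 ± 0.10 (0.045, called in 10 of 22 fits, weakest 0.25), while Pde1b was 0.33 ± 0.10 (0.0717). None was called among 26 cell cycle genes (21 below 0, median -0.06), 16 p53 and DNA damage genes (-0.02), 23 ribosomal protein genes (0.02), 33 proteasome genes (0.01), 37 oxidative phosphorylation genes (0.01) and 9 genes of skin, muscle and salivary gland (-0.10). The share of all genes called was 1.3%, at which lists of this size can hold none. In those lists the smallest adjusted p were Cdca8 at 0.0617, Sesn1 at 0.32, Rpl12 at 0.614, Psmd11 at 0.548, Cox5a at 0.219 and Krt5 at 0.449.

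The lists held 45 of the called genes, and 119 stood in none. Among these were genes of small p. Asah1, the lysosomal acid ceramidase gene, was 5.51, 5.96 and 6.24 in controls and 6.09, 6.29 and 6.53 at the low dose (0.41 ± 0.07, adjusted p = 0.000148). Cyp4f16, a cytochrome P450 gene, was 4.91, 5.31 and 5.58 in controls and 5.40, 5.75 and 6.05 at the low dose, with 14 arrays above every control (0.49 ± 0.08, 0.000148). Fry, a large protein tied to cell polarity, was 4.01, 4.54 and 4.94 in controls and 4.55, 5.10 and 5.45 at the low dose (0.58 ± 0.10, 0.000227). All of them were called in the 22 fits that left out 1 array. Usf2, a basic helix-loop-helix transcription factor gene, and Thbd, the anticoagulant thrombomodulin gene, are named after their values were seen. Usf2 rose by 0.31 ± 0.06 (0.000775, 14 arrays above every control) and Thbd by 0.51 ± 0.10 (0.00152, 13 arrays), both in all 22 fits. Another probe set of Usf2 showed no such rise, at 0.02 (limma, unadjusted p = 0.746). Further probe sets of Fry were -0.09, 0.09 and 0.02 (limma, unadjusted p = 0.281, 0.404 and 0.871).

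Further genes among the 25 largest rises were Trim7, a ubiquitin ligase gene, at 0.80 ± 0.17 (adjusted p = 0.00438), and Itih5, of the inter-alpha-trypsin inhibitor family, at 0.67 ± 0.13 (0.00186). Itih5 was called in all 22 fits, and Trim7 was lost without control 6 (0.63, adjusted p = 0.0691). Hdac9, a class IIa histone deacetylase gene, rose by 0.64 ± 0.15 (0.0146, lost without control 5 or 6, weakest 0.104) and the kinase gene Srpk3 by 0.62 ± 0.16 (0.0291, 17 of 22 fits, weakest 0.238). Crisp3 rose by 0.63 ± 0.17 (0.0353, 12 of 22 fits, weakest 0.224) at low signals of 1.77 to 4.04. That range lies below the filter value of 4.14, which Crisp3 passed through arrays of the other groups. Pgap1, which trims GPI anchors, rose by 0.60 ± 0.17 (0.0467, 5 of 22 fits, weakest 0.281), with no low-dose array above the highest control.

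Among genes that fell outside the lists, Lman2l, a lectin of the early secretory pathway, was the firmest. Its controls were 6.63, 6.87 and 7.03 and its low-dose arrays 6.24, 6.53 and 6.72 (-0.32 ± 0.06, adjusted p = 0.00207), and it was called in all 22 fits. Another probe set of Lman2l was -0.14 (limma, unadjusted p = 0.198). The phosphatase gene Dusp23 fell by 0.33 ± 0.08 (0.0176, lost without control 2, 5 or 6, weakest 0.0893), Gprasp1, a receptor sorting gene, by 0.27 ± 0.07 (0.0177, lost without control 5, 0.063) and Nt5m, a mitochondrial nucleotidase gene, by 0.20 ± 0.05 (0.0212, lost without control 2 or 7, weakest 0.0951). The transcription factor gene Tfec fell by 0.40 ± 0.10 (0.0307), the kinetochore gene Zwint by 0.34 ± 0.09 (0.0338), the cyclin-dependent kinase inhibitor gene Cdkn2b by 0.32 ± 0.09 (0.0338) and Dapk1, a death-associated kinase gene, by 0.31 ± 0.08 (0.0361). Inka1 fell by 0.29 ± 0.08 (0.0386), St7 by 0.35 ± 0.10 (0.041), Frmd5 by 0.33 ± 0.09 (0.0415) and Triqk by 0.44 ± 0.12 (0.0443). These 8 were called in 6 (Triqk) to 16 (Tfec) of the 22 fits. Further probe sets of Zwint were -0.03, -0.23, -0.11 and -0.07 (limma, unadjusted p = 0.73, 0.109, 0.177 and 0.391).

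The genes that rose were set beside the cell markers in arrays that took no part in the contrast. Over the 50 arrays of the other groups, each centred on its group, 40 of the 140 genes that rose correlated best with the B cell marker mean at a Pearson r of at least 0.5, or 28.6%, against 2.97% of all tested genes. With the monocyte mean it was 43, or 30.7%, against 1.33%. A further 11 went with T cells, or 7.86% against 29.8% of all tested genes, 9 with neutrophils (6.43% against 2.46%), 1 with NK cells (0.714% against 2.74%) and 36 with none (25.7% against 39.5%). Of the 24 that fell, 14 went with the platelet mean, 2 with T cells and 8 with none, where the shares of all tested genes were 4.46%, 29.8% and 39.5%. By Spearman's rho the counts among genes that rose were 37 for B cells, 32 for monocytes, 18 for T cells, 11 for neutrophils, 1 for NK cells and 41 for none, and among genes that fell 12 for platelets, 2 for T cells and 10 for none. Fos went with none of the means, Dusp1 with the neutrophil mean and Slc12a2 with the monocyte mean. All points share 1 normalisation and 1 platform, and the correlations are given as a description.

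The same genes were read at the high dose, in comparisons that share the control arrays or the low-dose arrays, so values are given side by side. Against control, the high dose called 3 genes (0.0238%). Slc12a2 was 0.55 at the high dose (adjusted p = 0.00737) beside 0.73 at the low dose, and high minus low was -0.18 (0.117). Fos was 0.80 (0.0552) beside 1.28, and the tested difference of high minus low was -0.48 (0.0139). Dusp1 was 0.61 (0.0955) beside 1.01, with -0.39 between the doses (0.0195). The B cell and class II genes lay on the other side of the controls at the high dose, though not past the threshold there: H2-Aa was -0.25 (0.463) and Fcer2a -0.30 (0.511). Between the doses H2-Aa differed by -0.72 (6.01e-08) and Fcer2a by -0.92 (6.01e-08).

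Between the doses 2349 genes were called, or 18.7%. The monocyte gene Cybb was lower at the high dose by 0.57 (adjusted p = 6.27e-06), while Cxcr4 (-0.14, 0.448), Tsc22d3 (-0.15, 0.208) and Treml4 (-0.14, 0.202) did not pass, with high-dose values against control of 0.62, 0.36 and 0.24. Hsph1 stood on opposite sides of control at the doses: it was 0.52 against control at the high dose (0.0552) and -0.52 at the low dose, a difference of 1.04 (1.99e-13). Hspa1b was 1.93 at the high dose beside 0.10 at the low dose, with 1.84 between the doses (1.86e-14), and Stip1 0.06 beside -0.50, with 0.56 between the doses (5.53e-07). The platelet gene P2rx1 was 0.01 at the high dose beside -0.36.

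After 2 weeks on plain water none of 12588 genes was called between low-dose and control mice by limma, with 295 (2.34%) at an unadjusted p under 0.05. Over the genes that had risen the median difference was then 0.00, and over those that had fallen 0.11. The change of the difference was tested itself: low minus control after recovery less low minus control after exposure passed for 3 genes (0.0238%), Slc12a2, Dapk1 and Cdkn2b. Slc12a2 went from 0.73 to -0.17, a change of -0.90 ± 0.15 (adjusted p = 0.000829). Its controls were 5.75 ± 0.24 (SD, n = 7) after exposure and 6.40 ± 0.33 (SD, n = 7) after recovery, and its low-dose arrays 6.48 ± 0.14 (SD, n = 15) and 6.23 ± 0.22 (SD, n = 15). The control groups of the collections differed by 0.64 (3.09e-05).

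Dapk1 went from -0.31 to 0.29 (change 0.60 ± 0.12, adjusted p = 0.0149) and Cdkn2b from -0.32 to 0.27 (0.60 ± 0.12, 0.0217). Without control 2 neither Dapk1 (0.57, adjusted p = 0.062) nor Cdkn2b (0.57, 0.0851) passed, and without control 6 Cdkn2b did not (0.58, 0.0692). With the 7 marker means as covariates none of the 3 passed: the change was -0.52 for Slc12a2 (0.477), 0.28 for Dapk1 (0.998) and 0.42 for Cdkn2b (0.597). For both Dapk1 and Cdkn2b, the low-dose means were close at the collections, 6.24 and 6.18 for Dapk1 and 4.48 and 4.52 for Cdkn2b, and the controls fell, from 6.54 to 5.90 and from 4.80 to 4.25. Fos was 1.28 and then 0.19, a change of -1.09 ± 0.25 that missed the threshold (0.0576), and Dusp1 was 1.01 and then 0.25 (-0.76 ± 0.22, 0.0981). Cxcr4 was 0.75 and then 0.35 (-0.40 ± 0.23, 0.697). Control blood itself differed between the collections in 4543 genes (36.1%), so age, collection and recovery cannot be told apart.

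**Figure D4:**
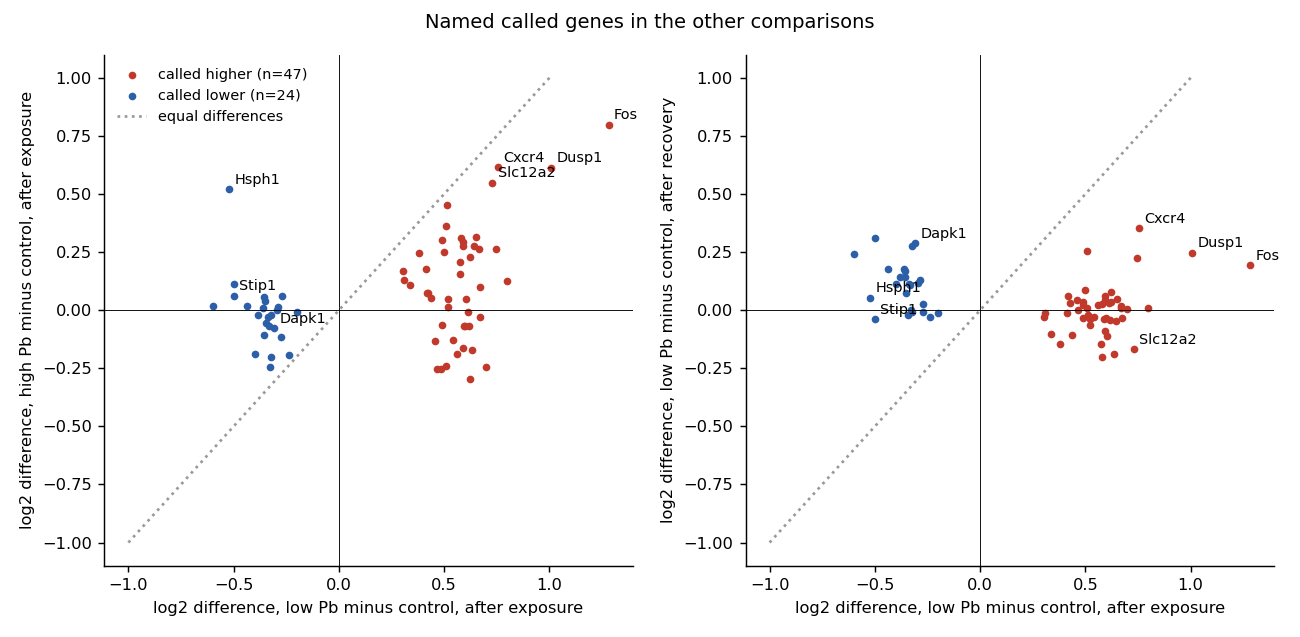
Log2 difference of the low dose minus control after exposure (x axes) against that of the high dose minus control after exposure (left) and of the low dose minus control after recovery (right) for the named called genes, with the line of equal differences dotted. Both axes of the left panel share the control arrays. Fos, Dusp1, Cxcr4 and Slc12a2 are the highest points at the high dose, Hsph1 lies at 0.52 there, and after recovery most points lie near 0.

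Some called genes have further probe sets. For 67 of the 164, 102 other probe sets passed the filter: 92 pointed the same way, 50 of them at an unadjusted p under 0.05, and 10 pointed the other way, none at that level. Direction was counted whatever its size, so the 0.02 of Usf2 counts as the same way.

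**Figure D5:**
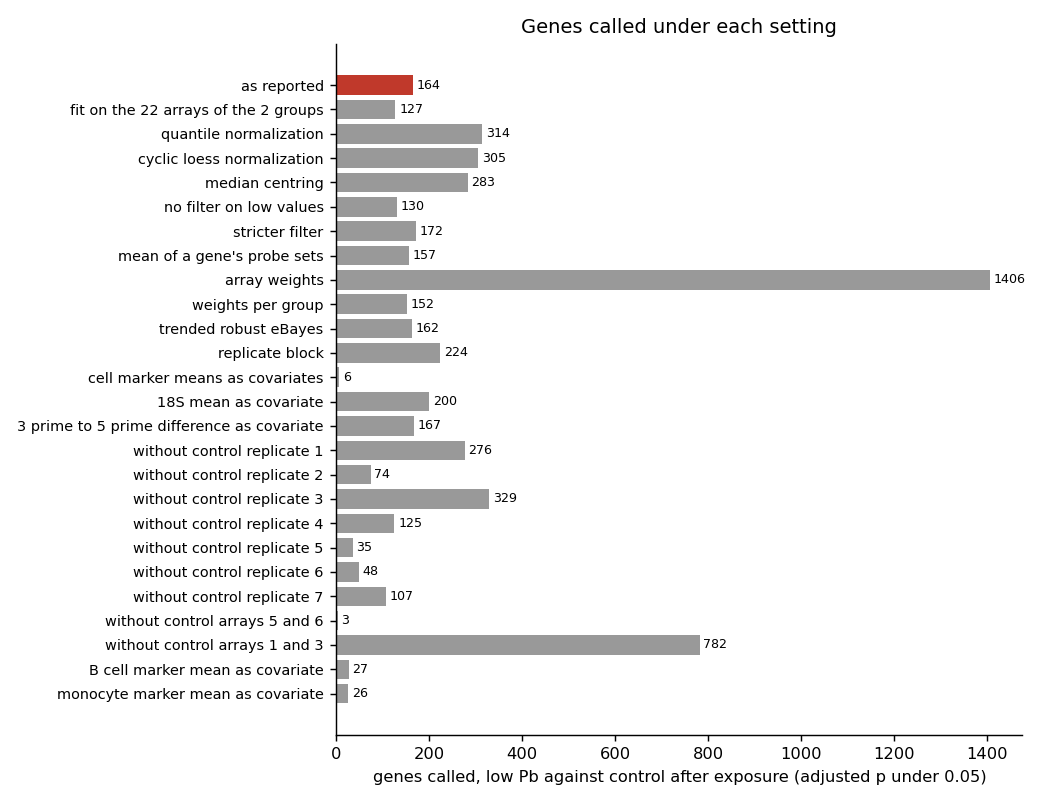
Number of genes called between the low dose and control after exposure (x axis) as reported (red) and under each alternative (grey; leaving out single low-dose arrays is not drawn). The count runs from 3 without controls 5 and 6 to 1406 with array weights.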

How the data were processed

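The deposited values are log2 expression from 72 mouse whole-blood arrays, made by the authors with RMA, per the submitters' processing notes. For software and version: not given in the sources used here. Groups were taken from the sample titles. Probe sets with exactly 1 symbol in the platform annotation were kept (34945 of 45101), then those above the median of all values, 4.14, in at least 7 arrays. The probe set of highest mean stood for each gene, which left 12588 genes. A group-means model over all 72 arrays was fitted with limma 3.58.1 (R 4.3.3) with empirical Bayes moderation (66 residual degrees of freedom) and Benjamini-Hochberg adjustment over all tested genes. Array measures were compared by exact permutation in scipy 1.17.1. The precision is limited by the number of arrays. The fit was tested on simulated data with independent genes and the same spread in every group. That test does not cover the wider spread of the controls or genes that vary together. Named genes are the 25 largest rises, all falls, all called list members, up to 4 genes of smallest p per list, the 8 of smallest p and a few genes set by name. Clone names were left out. The members and lists were chosen with earlier results of these data known. Alternatives were other normalisations, filters, probe set rules, weights, covariates and left-out arrays. Marker means of B cells or monocytes as covariates, and leaving out pairs of controls, were chosen after seeing the data. Promoters are RefSeq sequences of GRCm38.p6, present for 131 of 164 called genes. Same-numbered arrays of the groups did not deviate together (1 of 7 pairs above 0.1, range -0.21 to 0.51), so the numbers were not used as pairs.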

Additional observations from a re-analysis of the deposited data

Results flagged for a closer look

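Among 86 series of 7 control values, 3 held an array far from the other 6, and chance alone marks about 1 in 20 such series. Csf1r was 8.11 in control replicate 5, where the next control was 8.73. Ear3 was 5.08 in control replicate 6, where the next was 5.47. The mean of eosinophil and basophil markers was 0.55 in control replicate 7, where the next was -0.03.

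The low-dose difference itself differed between the collections, by limma's interaction test, for 3 genes. The difference after recovery minus that after exposure was 0.60 for Cdkn2b, 0.60 for Dapk1 and -0.90 for Slc12a2. Without control 2 Cdkn2b and Dapk1 lost the call (0.57 and 0.57, adjusted p = 0.0851 and 0.062), and without control 6 Cdkn2b did (0.58, adjusted p = 0.0692). With 7 marker means as covariates all 3 lost it (0.42, 0.28 and -0.52, adjusted p = 0.597, 0.998 and 0.477).

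Probe sets with no symbol or several symbols, which the comparisons leave out, numbered 3997 past the filter. Of these 14 were called between the low dose and control after exposure, 11 higher and 3 lower.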

How the results depend on the processing

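The count of 164 called genes was 314 with quantile normalisation, 305 with cyclic loess, 283 with median centring and 1406 with array weights. It was 6 with 7 marker means as covariates, 27 with the B cell mean, 26 with the monocyte mean, 3 without controls 5 and 6 and 782 without controls 1 and 3. Leaving out 1 array gave 35 to 329. The share that rose was 85.4% as reported, 73.9% with quantile normalisation (232 of 314), 74.8% with cyclic loess (228 of 305), 76.7% with median centring, 70.4% with array weights and 70.9% in the fit on the 22 arrays alone (90 of 127). It was 63.0% with the B cell mean (17 of 27), 33.3% with 7 marker means (2 of 6) and 11.5% with the monocyte mean (3 of 26), so most calls lay lower under the last 2. Most of those calls were of other genes: 2 of the 164 stayed called with 7 marker means and 4 with the monocyte mean. With the replicate number as a block, which does not pair these arrays, 224 genes were called.

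The count of 3 genes whose low-dose difference changed between collections was 78 with quantile normalisation, 45 with cyclic loess, 66 with median centring, 14 with the stricter filter, 9 with the mean of a gene's probe sets, 716 with array weights, 1 with marker covariates, 14 with the 18S mean, 9 with the 3 prime to 5 prime difference and 1 to 52 without single arrays. The count of 2349 between the doses was 132 with marker covariates and 893 with the 18S mean. The cause was not tested. Ccr2 turned to -0.41 with marker covariates (adjusted p = 0.0262) and to -0.38 with the monocyte mean (adjusted p = 0.0389). Ly86 turned to -0.000385 and -0.0147 under the same settings. Small differences in dim genes are limited by signal over background.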

Other observations

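Secretory genes of glands varied widely in both groups. These genes and the level used to count arrays were chosen after their values were seen. Obp1a, an odorant-binding protein gene, ran from 1.28 through a median of 1.79 to 9.40 in controls and from 1.25 through 4.54 to 10.4 at the low dose. The difference was 1.84 ± 1.42 (limma, adjusted p = 0.678). Obp1a, Scgb1b2 and Mucl2 all lay above 6 in 19 of the 72 arrays, and none of them did in the other 53. After exposure this held in 1 of 7 control arrays and in 5 of 15 low-dose arrays.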
